A study of Mus musculus with 2 samples.

Results

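The genes of *Apoe* and of cholesterol efflux were examined in alveolar macrophages (AMs), the resident macrophages of the air spaces, sorted from mice with and without a lung tumor. The 10 genes are *Apoe*, *Apoc1*, *Apoc2*, *Abca1*, *Abcg1*, *Lpl*, *Nr1h3*, *Lipa*, *Npc1* and *Npc2*, chosen by name, and all 10 were found among the 32285 genes of the count tables. They were measured in cell barcodes with at least 500 detected genes and at most 10% mitochondrial UMIs (unique molecular identifiers, each standing for 1 captured RNA molecule), which left 6185 of 8485 barcodes in the control library and 7666 of 9175 in the tumor library. The question was how high each gene was in each library, in what share of cells it was seen, and whether the other 9 were higher in the same cells as *Apoe*.

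Both groups were C57BL/6 mice, given as 10 weeks old in the labels, with no transgene named for either. The control library held AMs from mice that received vehicle only, and the tumor library held AMs from mice that had Lewis lung carcinoma (LLC) cells, a lung cancer line from the same strain, placed in the left lung. The study defines AMs as strongly autofluorescent CD45+, F4/80+, Siglec-F+, CD11c+ and CD11b- cells of the lung. There was 1 library per condition, and the sources used here do not give the number of mice pooled in each. No test was therefore run, no p-value is given, and the library and the condition cannot be told apart. Levels are given as CPM, the UMIs of a gene in a group of cells divided by all UMIs of that group and multiplied by 10⁶, and ratios are between such levels. Brackets hold exact 95% intervals, which cover counting error only and not the variation among mice or cells. Only those on differences in share are approximate, joined from the exact intervals of both libraries.

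Macrophages take up cholesterol with lipoproteins, dying cells and, in the alveoli, surfactant. Lysosomal acid lipase, encoded by *Lipa*, splits the cholesterol esters, and the proteins encoded by *Npc1* and *Npc2* hand the free cholesterol out of the lysosome. Excess cholesterol and its oxidized forms activate liver X receptors (LXRs), among them the product of *Nr1h3*, which raise transcription of the exporters *Abca1* and *Abcg1* and of the apolipoprotein genes around *Apoe*. *Abcg1* is known for a particular role in the lung, where its loss leads to lipid-laden AMs.

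*Apoe*, *Apoc1* and *Apoc2* lie within 1 stretch of mouse chromosome 7 and on the same strand. In GRCm38 *Apoe* spans chr7:19696109-19699188, *Apoc1* spans chr7:19689481-19692660 and *Apoc2* spans chr7:19671579-19677941. *Apoc2* is also overlapped by the annotated readthrough gene *Gm44805*, which has no row in the count table, and how reads shared by both were assigned is not given in the sources used here. *Abca1* lies on chromosome 4, *Abcg1* on 17, *Lpl* on 8, *Nr1h3* on 2, *Lipa* on 19 and *Npc2* on 12. In the order of the opening list, the Ensembl identifiers in the count table are ENSMUSG00000002985, ENSMUSG00000040564, ENSMUSG00000002992, ENSMUSG00000015243, ENSMUSG00000024030, ENSMUSG00000015568, ENSMUSG00000002108, ENSMUSG00000024781, ENSMUSG00000024413 and ENSMUSG00000021242.

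The 250 bases before a start site are shown for *Apoe* and *Abca1*, since both are known LXR targets and their levels differed between the libraries in opposite directions. They come from RefSeq, GRCm38.p6, and are read 5′ to 3′ on the minus strand, chr7:19699189-19699438 for *Apoe* and chr4:53159896-53160145 for *Abca1*. Both strands were searched for a direct repeat with a spacer of 4 bases, the kind of element to which LXRs bind (GGTNA, any 5 bases, GGTNA), and for the E-box CACGTG. Matches are in capitals.
Apoe: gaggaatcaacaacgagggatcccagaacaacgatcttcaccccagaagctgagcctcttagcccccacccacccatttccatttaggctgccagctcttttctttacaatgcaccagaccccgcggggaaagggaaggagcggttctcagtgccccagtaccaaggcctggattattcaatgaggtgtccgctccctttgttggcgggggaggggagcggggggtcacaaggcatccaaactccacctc
Abca1: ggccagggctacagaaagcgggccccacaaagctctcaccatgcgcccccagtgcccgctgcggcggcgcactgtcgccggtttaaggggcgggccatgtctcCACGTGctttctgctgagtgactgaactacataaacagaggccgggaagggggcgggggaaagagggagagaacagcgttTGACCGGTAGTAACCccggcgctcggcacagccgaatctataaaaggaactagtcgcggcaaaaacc
The *Abca1* window held both, an E-box 147 bases and a direct repeat 67 bases before the start. The repeat reads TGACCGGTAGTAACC on the printed strand and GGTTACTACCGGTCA on the other. The *Apoe* window held neither. It is the one farthest upstream of 3 *Apoe* start windows in the table, and the others held neither as well. Of 32851 mouse promoters searched over the same length, 0.621% held the direct repeat and 6.02% the E-box. Of the 10 genes, 6 had an entry in the table, and *Apoc1*, *Abcg1*, *Lpl* and *Npc1* are only named here. A match describes letters in this window and nothing about binding.

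The libraries were of similar depth. The kept barcodes carried 64850143 UMIs in the control library and 68801889 in the tumor library, with medians of 10370 and 8264 UMIs per cell. Shares of cells were compared after thinning each cell at random to 3800 UMIs, which left out 595 control and 729 tumor cells that were shallower, so that 5590 and 6937 remained. Markers of another cell type (at least 3 genes of 1 list with 2 UMIs each, or 1% of all UMIs on the list) were carried by 16 control and 18 tumor barcodes, and 17 kept barcode sequences occurred in both libraries. AM markers were present: over 10 of them, no marker was at 0 and 98.5% or more of the cells of every *Apoe* class carried at least 1.

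*Apoe*, which encodes the main apolipoprotein that macrophages secrete, was listed with 1658 UMIs in the control library and with 41455 in the tumor library. The level came to 25.6 CPM [24.4, 26.8] in control AMs and 603 CPM [597, 608] in tumor AMs, a 23.6-fold difference. The control level lies within the interval of *Apoe* in control barcodes under the minimum of 500 genes, 23.2 CPM [14.9, 34.5]. Control *Apoe* over all cells thus cannot be told apart from these barcodes. They also held *Lpl* at 1269 CPM, so they can be shallow AMs and do not measure free RNA alone. *Apoe* was chosen for the difference between the libraries, so that fold is given as a description. After thinning, 4.51% of control AMs [3.98, 5.09] and 28.8% of tumor AMs [27.7, 29.9] had an *Apoe* UMI, a difference of 24.3 percentage points [23.1, 25.5]. Without thinning the shares were 7.34% and 37.1%. As a mean of the CPM of each cell the difference was 13.4-fold, and without cells carrying a UMI of *C1qa*, *C1qb*, *C1qc*, *Itgam*, *Ccr2*, *Cx3cr1* or *Ly6c2*, genes of interstitial macrophages and monocytes, it was 10.5-fold. The level thus differed by more than the share of cells did, and a positive cell held a mean of 2.42 thinned *Apoe* UMIs in the control library and 5.84 in the tumor library.

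Markers of cell types differed along with it. Of 10 AM markers 9 had ratios below 0 in the tumor over the control library, with a median log2 of -0.48, and 2 were at least 2-fold lower, where 5.16% of all 12936 measured genes were at least 2-fold lower and 4.3% at least 2-fold higher. All 6 measured monocyte and tumor macrophage markers were higher, 4 of them at least 2-fold, with a median of 1.29, and so were all 4 measured interstitial macrophage markers, 2 of them at least 2-fold, with a median of 1.30 and *C1qb* at 0.401 and 20.6 CPM. Of the fibroblast markers *Col3a1* was at 0.185 and 11.9 CPM, *Dcn* at 0.386 and 14.0 CPM and *Lum* had 0 and 380 UMIs, each seen in under 1% of cells. At least 2-fold lower were 3 of 4 measured B cell markers and 2 of 5 epithelial ones, with *Epcam* at 53.7 and 4.39 CPM. At least 2-fold higher were 1 of 2 measured neutrophil markers and 1 of 4 measured T and NK cell markers. None of the 2 measured dendritic and 5 measured endothelial markers was past 2-fold. Markers with under 10 UMIs in either library are left out of these counts, and some of them differed widely. The neutrophil markers *S100a9* and *Retnlg* had 324 and 50 UMIs in the control library and 3 and 0 in the tumor library. The dendritic marker *Cd209a* had 16 and 1. *C1qa* and *C1qc* went the other way, from 9 to 656 and from 3 to 588 UMIs. *Apoe* was 24.0-fold higher without the barcodes that carried markers of another cell type by the rule above. Otherwise their part in the result was not tested.

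Of the other apolipoprotein genes, *Apoc2*, whose product activates lipoprotein lipase, was low in both libraries, at 2.0 CPM [1.67, 2.38] in control and 9.37 CPM [8.67, 10.1] in tumor AMs. That is a 4.68-fold difference on 130 and 645 UMIs. *Apoc1*, which encodes an inhibitor of lipoprotein lipase and of lipoprotein uptake, was at 22.6 CPM [21.4, 23.7] and 32.3 CPM [31.0, 33.7], a 1.43-fold difference. Its share of thinned cells was 5.80% in the control library and 6.43% in the tumor library, a difference of 0.633 points whose interval [-0.225, 1.48] includes 0. The apolipoprotein genes therefore differed in the same direction but by very different amounts.

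Both exporters were lower in the tumor library, *Abcg1* by little beside a median log2 ratio of -0.07 over all genes. Neither was of 1 direction within the clusters described further on. *Abca1*, which loads cholesterol onto lipid-poor apolipoproteins, was at 84.4 CPM [82.1, 86.6] in control and 58.1 CPM [56.4, 60.0] in tumor AMs, giving a log2 ratio of tumor over control of -0.54 [-0.60, -0.48]. An *Abca1* UMI was seen in 22.0% of thinned control AMs and 16.6% of thinned tumor AMs. *Abcg1*, which passes cholesterol to lipoprotein particles, was at 1280 CPM in control and 1164 CPM in tumor AMs, giving a log2 ratio of -0.14 [-0.15, -0.12], and was seen in 97.0% and 95.5% of thinned cells. *Lpl*, the secreted lipoprotein lipase, was at 2784 and 2415 CPM, giving a log2 ratio of -0.20 [-0.21, -0.20]. Nearly every AM of either library thus had UMIs of *Abcg1* and *Lpl*, whereas *Apoe* was seen in a minority.

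*Nr1h3*, which encodes LXR alpha, was at 42.6 CPM [41.0, 44.2] in control and 62.9 CPM [61.0, 64.8] in tumor AMs, a 1.48-fold difference. Its share of thinned cells was 15.03% and 21.4%. Among the lysosomal genes *Npc2* differed, with 587 CPM [582, 593] in control and 847 CPM [840, 854] in tumor AMs, a 1.44-fold difference. *Lipa* was at 750 and 740 CPM, giving a log2 ratio of -0.02 [-0.04, -0.00], and *Npc1* at 148 and 159 CPM, giving a log2 ratio of 0.11 [0.07, 0.15].

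With 2-fold as the limit, 2 of the 10 genes were higher in the tumor library, *Apoe* and *Apoc2*, and none was lower. Over all 12936 genes that had 10 or more UMIs on both sides, 4.3% were at least 2-fold higher and 5.16% at least 2-fold lower, and the median log2 ratio was -0.07. Because *Apoe* was used to choose the list, nothing is read from this count. The remaining 8 genes lay between -0.54 and 0.56 on the log2 scale.

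**Figure D1:**
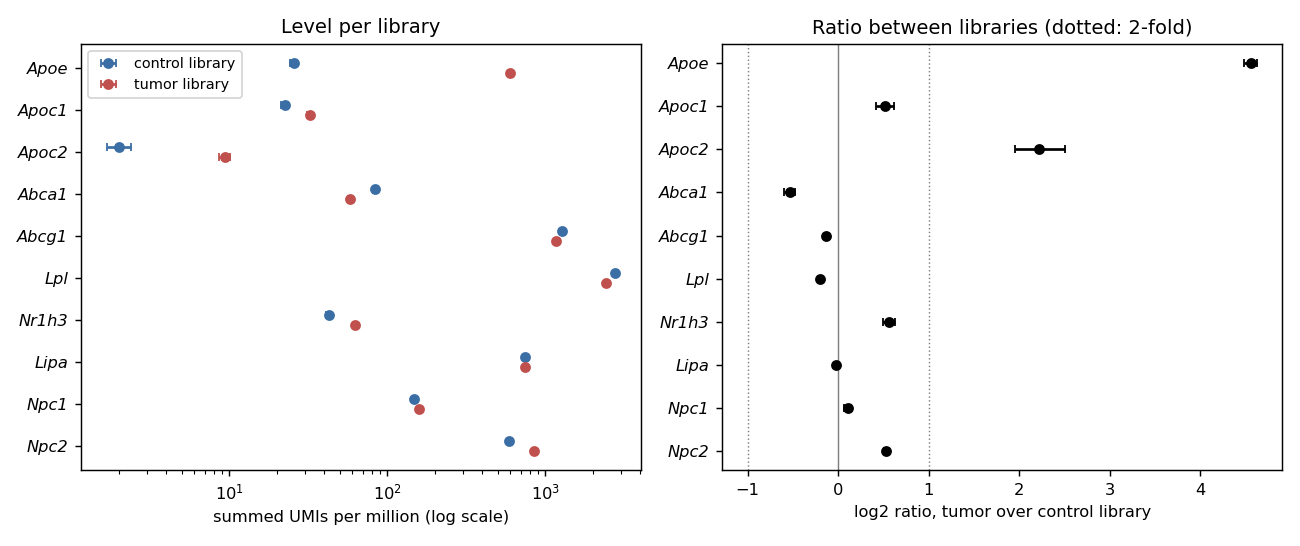
Left, level of each gene in the control and the tumor library (summed UMIs, CPM, log scale), with exact 95% Poisson intervals. Right, log2 ratio of tumor over control with exact 95% intervals, where dotted lines mark 2-fold. *Apoe* (4.56) and *Apoc2* (2.23) lie past 2-fold, and *Abca1* (-0.54) is the lowest ratio of the 10.

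*Apoe* UMIs were spread unevenly over the cells. Of the thinned tumor cells, 4941 had no *Apoe* UMI, 1081 had 1 or 2, 641 had 3 to 9 and 274 had 10 or more, with 191 in the highest cell. In the control library the same classes held 5338, 182, 62 and 8 cells, and the highest cell had 40. Over all UMIs, 48.9% of tumor *Apoe* UMIs came from the 1% of tumor cells with the most, and 87.6% from the top 10%. In the control library the top 1% of cells held 57.4%, but only 7.34% of control cells had an *Apoe* UMI at all, which by itself places the UMIs in few cells. The class limits are cuts through a continuous range and not cell types, and 29 tumor cells had 9 and 35 had 10 thinned UMIs.

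RNA set free from broken cells can put *Apoe* UMIs into barcodes of cells that do not express it. The 18 tumor barcodes with markers of another cell type held *Apoe* at 116 CPM [80.9, 160], with a UMI in 7 of them before thinning. *Apoc1* was in none of the 18 (upper bound 18.5%), *Abcg1* in 3 and *Lpl* in 6. Of their 37 *Abcg1* UMIs 34 lay in 1 barcode, and of their 85 *Lpl* UMIs 78 lay in 1. Of the 16 deep enough to thin, 3 had an *Apoe* UMI, or 18.8% [4.05, 45.6], 2 had 3 or more, and none had 10 or more. Their median depth before thinning was 11512 UMIs, against 8264 in all kept tumor barcodes. The tumor barcodes under the minimum of 500 genes, 745 with a median of 715 UMIs, held *Apoe* at 133 CPM [104, 166], and there were 1323 such control barcodes. These 745 held *Lpl* at 1256 CPM, with a UMI in 53.7% of them, so they can be shallow AMs and do not measure free RNA alone. The 16 control barcodes with markers of another type held 26 *Apoe* UMIs in 3 barcodes, up to 17 in 1, and of the 8 deep enough to thin 2 had 3 or more and 1 had 15. In a tumor cell 1 *Apoe* UMI, and also 3 or more, are therefore within what these barcodes show, and 10 or more within what the control ones show. In the control ones 31 of 42 *Lpl* UMIs lay in 1 barcode. Barcodes of this kind can also hold an AM, which was not tested, so they set no limit for free RNA alone. Shares at higher limits are given beside that at 1. At 3 or more the shares were 1.25% of control and 13.2% of tumor AMs, and at 10 or more they were 0.143% and 3.95%.

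**Figure D2:**
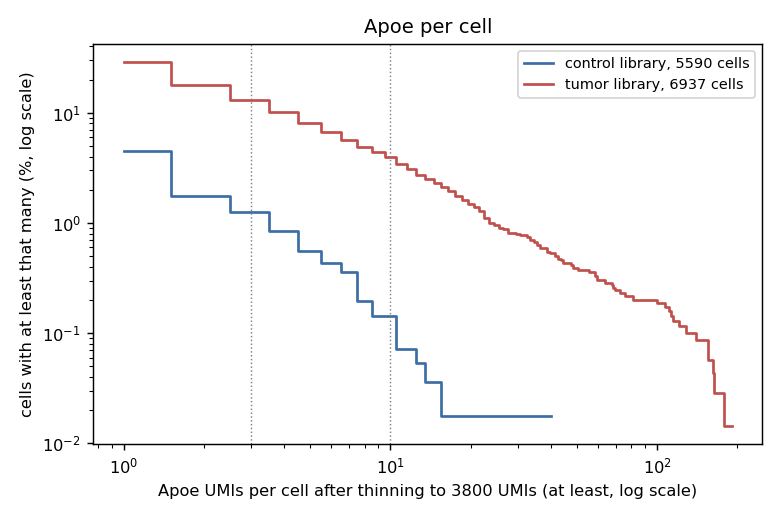
Share of cells (percent, log scale) with at least the number of thinned *Apoe* UMIs on the x axis (log scale), for 5590 control and 6937 tumor cells. Dotted lines mark 3 and 10 UMIs. The tumor curve lies above the control curve from 1 UMI (28.8% against 4.51%) to 10 UMIs (3.95% against 0.143%).

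In tumor AMs the other genes split with the *Apoe* class. Cells with 10 or more thinned *Apoe* UMIs (called *Apoe*-high) were set against cells with none (*Apoe*-zero). *Apoc2* was at 5.91, 8.0, 10.7 and 52.8 CPM over the 4 classes in order of *Apoe*, giving a log2 ratio of *Apoe*-high over *Apoe*-zero of 3.16 [2.67, 3.64]. *Apoc1* was at 27.4, 23.4, 61.2 and 71.1 CPM, giving a log2 ratio of 1.38 [1.0, 1.73]. *Npc2* was at 745, 864, 1007 and 1413 CPM, giving a log2 ratio of 0.92 [0.85, 1.0]. These 3 were highest in the cells with the most *Apoe*, and for *Apoc2* and *Npc2* the level was higher at each step. For *Apoc1* the intervals at 3 to 9 UMIs, [51.7, 71.8], and at 10 or more, [55.8, 89.2], overlap. An *Apoc1* UMI was seen in 11.2% and 9.12% of the cells of these classes.

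Others were lower where *Apoe* was high. *Abcg1* was at 1321, 1225, 1140 and 714 CPM over the classes, giving a log2 ratio of -0.89 [-1.0, -0.78]. *Lpl* was at 2706, 2264, 2071 and 1841 CPM, giving a log2 ratio of -0.56 [-0.62, -0.49], and *Nr1h3* at 68.1, 65.2, 55.0 and 43.2 CPM, giving a log2 ratio of -0.66 [-1.12, -0.23]. Each of these 3 was lower at every step. *Abca1* was at 63.3, 63.1, 77.2 and 59.5 CPM with no steady direction, and its log2 ratio of -0.09 had an interval [-0.48, 0.28] that includes 0. *Lipa* and *Npc1* had log2 ratios of 0.18 [0.08, 0.28] and 0.22 [-0.00, 0.44].

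Of the 9 other genes, 2 were at least 2-fold higher in *Apoe*-high cells, *Apoc1* and *Apoc2*, and none was at least 2-fold lower. *Apoc2* met the minimum of 10 UMIs in the *Apoe*-high class only because it was high there. Over the 7272 genes with enough UMIs 4.18% were at least 2-fold higher and 3.82% at least 2-fold lower, with a median log2 ratio of -0.17. Of the 1996 thinned tumor cells with an *Apoe* UMI, 161 also had an *Apoc1* UMI and 99 an *Apoc2* UMI. Those were 8.07% and 4.96% of the *Apoe*-positive cells, against 5.77% and 2.02% of the *Apoe*-zero cells, 36.1% of the 446 *Apoc1*-positive cells and 49.7% of the 199 *Apoc2*-positive cells.

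The control library showed another pattern, on few cells. In its *Apoe*-high cells 4 of the 9 other genes had enough UMIs and none was past 2-fold, where 6.81% of 499 genes were higher and 0.601% lower. Since only 8 control cells were *Apoe*-high, cells with 3 or more *Apoe* UMIs, these 8 included, were used instead, 70 against 5338 with none. Endothelial markers moved with this class. They were carried by 3 of the 8 cells (888 CPM summed over the 5 genes) and 3 of the 62 with 3 to 9 UMIs (93.4 CPM), against 6.70 CPM in *Apoe*-zero cells. All 3 measured ones were past 2-fold higher, with log2 ratios of 4.35 to 5.82, beside 1.76% of 4044 measured genes. At their *Apoe*-zero levels they would have stayed under the 10 UMIs asked for, so nothing is read from this count. *Apoc1* was at 192 CPM in the 70 cells and 22.3 CPM in the 5338 without *Apoe*, giving a log2 ratio of 3.10 [2.65, 3.52] on 51 UMIs. *Abca1* was at 207 and 84.5 CPM, giving a log2 ratio of 1.29 [0.88, 1.68] on 55 UMIs. At its level in *Apoe*-zero cells *Apoc1* would have stayed under the 10 UMIs asked for in this class. Without the barcodes that carried markers of another cell type these ratios were 3.15 and 1.33 on 68 cells, without every cell that had a UMI of an endothelial marker 3.27 and 1.36 on 60 cells, and with another random thinning 2.69 and 1.28.

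*Abcg1* was at 1496 and 1323 CPM in these control cells, giving a log2 ratio of 0.18 [0.03, 0.32], and *Lpl* at 2974 and 2852 CPM, giving a log2 ratio of 0.06 [-0.04, 0.16]. *Npc2* had a log2 ratio of 0.23 [0.01, 0.44], and only 4 *Apoc2* UMIs fell in the 70 cells. *Apoc1* and *Abca1* were at least 2-fold higher, where 1.76% of the 4044 measured genes were and 0.173% were at least 2-fold lower, and since *Apoc1* was measured only because it was high, nothing is read from the count. At the same limit of 3 UMIs, tumor AMs had log2 ratios of 1.23 [0.99, 1.46] for *Apoc1*, 1.98 [1.55, 2.40] for *Apoc2*, 0.18 [-0.02, 0.38] for *Abca1*, -0.38 [-0.44, -0.33] for *Abcg1* and 0.60 for *Npc2*. There 2 of 9 were at least 2-fold higher, *Apoc1* and *Apoc2*, beside 2.79% of 9504 genes, with 2.18% at least 2-fold lower. The difference in *Abcg1* between the libraries was not tested. With another random thinning its control ratio was 0.06, with an interval [-0.09, 0.21] that includes 0, and that of the tumor library -0.36, so that a higher level of *Abcg1* in these control cells depends on the draw.

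**Figure D3:**
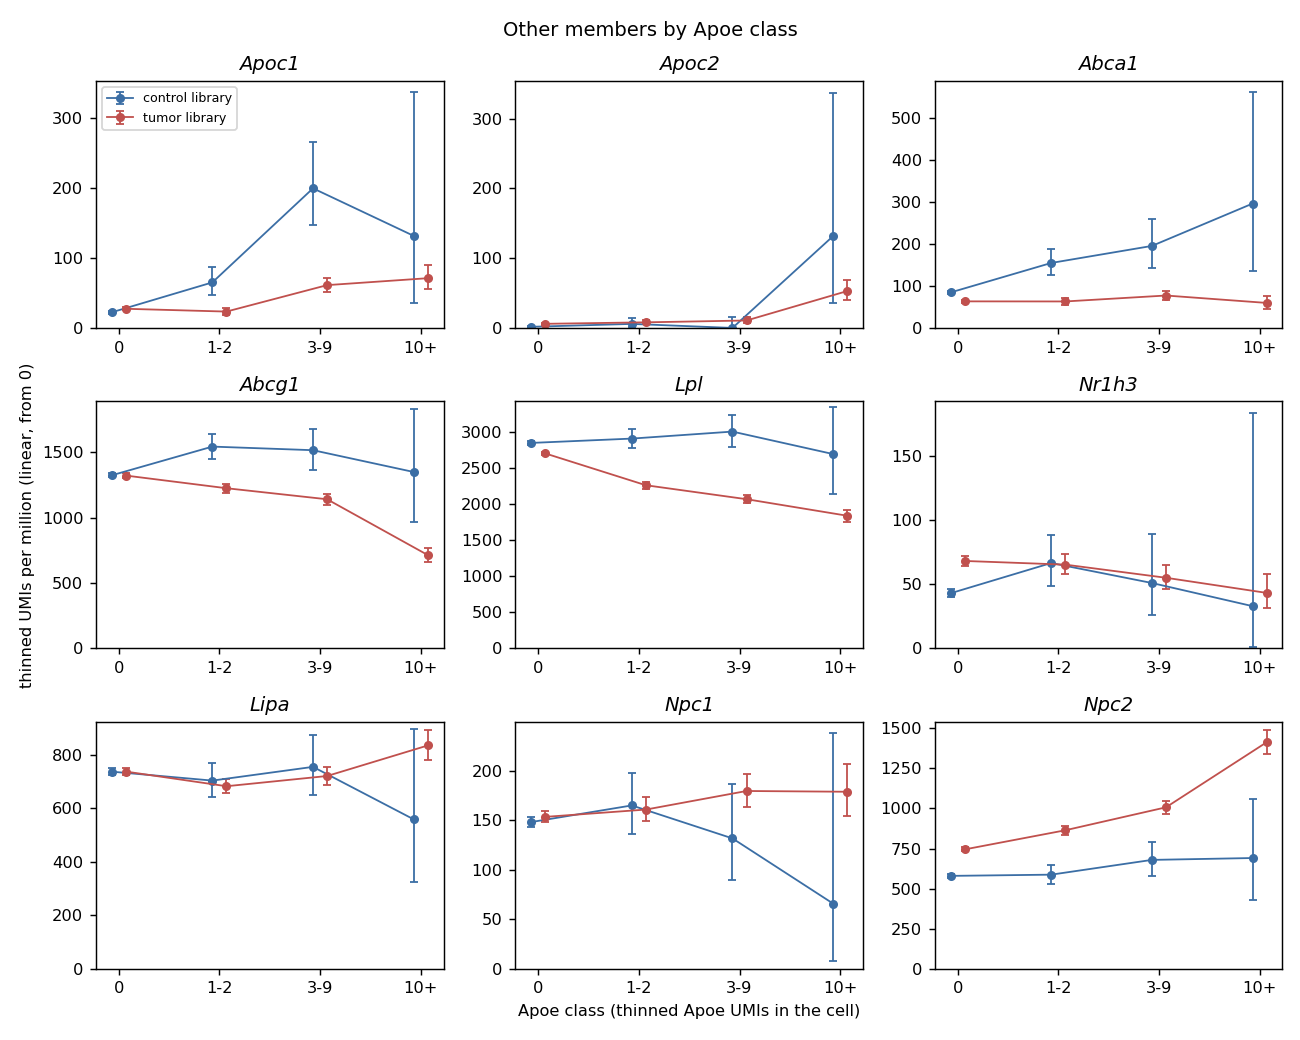
Level of each of the other 9 genes (thinned UMIs, CPM, linear from 0) by the number of thinned *Apoe* UMIs in the cell, in the control and the tumor library, with exact 95% Poisson intervals. In tumor AMs *Npc2* goes from 745 to 1413 and *Abcg1* from 1321 to 714. The last control class holds 8 cells.

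The libraries were also compared within an *Apoe* class. Among *Apoe*-zero cells *Apoc2* was at 1.63 CPM in the control and 5.91 CPM in the tumor library, giving a log2 ratio of 1.86 [1.29, 2.47]. *Nr1h3* was at 42.9 and 68.1 CPM, giving a log2 ratio of 0.67 [0.54, 0.79], *Npc2* at 579 and 745 CPM, giving a log2 ratio of 0.36 [0.33, 0.40], and *Abca1* at 84.5 and 63.3 CPM, giving a log2 ratio of -0.42 [-0.53, -0.31]. The differences in these 4 genes were thus also present in cells with no *Apoe* UMI after thinning, some of which can hold *Apoe* UMIs before it. *Abcg1*, at 1323 and 1321 CPM, had a log2 ratio with an interval of [-0.03, 0.02] there, and *Lpl* one of -0.08 [-0.09, -0.06], against -0.14 and -0.20 in all cells. Only *Apoc2* of the 9 was past 2-fold, higher in the tumor library, beside 2.79% of 11344 genes higher and 2.49% lower.

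Among cells with 3 or more *Apoe* UMIs the libraries drew on different clusters of the clustering described further on. Of the 70 control cells 28 lay in cluster 1, led by *Acaa1b* and *Fabp1*, and 3 in cluster 2, led by *S100a6*, whereas of the 915 tumor cells 38 lay in cluster 1 and 382 in cluster 2. *Apoe* itself was at 1500 CPM in the control and 2950 CPM in the tumor class. *Apoc1* was at 192 CPM in the control and 64.1 CPM in the tumor library, giving a log2 ratio of -1.58 [-2.02, -1.11], and *Abca1* at 207 and 71.9 CPM, giving a log2 ratio of -1.52 [-1.95, -1.08]. *Abcg1* and *Lpl* had log2 ratios of -0.56 [-0.71, -0.41] and -0.57 [-0.68, -0.46], and *Npc2* was higher in the tumor cells, with 0.73 [0.51, 0.95]. *Apoc1* and *Abca1*, 2 of the 8 with enough UMIs, were at least 2-fold lower and none was at least 2-fold higher, beside 5.82% of 4038 genes lower and 1.78% higher.

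Other genes of the pathway were followed in lists drawn up with results of these data known. Of 16 LXR target genes, 7 of them among the 10, all 12 that had 10 UMIs in each class of the control library had ratios above 0 in cells with 3 or more *Apoe* UMIs over cells with none. Low genes reach 10 UMIs in 70 cells only where they are high, so this count is not read as a result, and of the others *Srebf1* had a log2 ratio of -0.94 on 5 UMIs and *Abca9* had none. Among the 12 were *Scd1* and *Scd2*, stearoyl-CoA desaturases, at 60.2 against 10.8 CPM and 75.2 against 30.0 CPM, and *Arl4c* at 37.6 against 14.9 CPM, on 16, 20 and 10 UMIs. In the larger tumor class 6 of 14 were above 0 and the median was -0.28, against -0.11 over all genes, with *Scd1* at 3.74 against 6.02 CPM and *Pltp*, the phospholipid transfer protein, at 49.5 against 65.6 CPM. Between the libraries as a whole, 4 of the 16 were at least 2-fold higher in the tumor library, *Apoc2*, *Abca9*, *Arl4c* and *Apoe*, which was chosen for it, and 1 was lower, *Scd1* at 11.5 and 4.93 CPM, beside 4.3% of all genes higher and 5.16% lower.

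Of the 22 genes of sterol synthesis and uptake driven by SREBP2, 21 had ratios above 0 in the tumor over the control library, with a median log2 of 0.77, and none was 2-fold higher, where 41.5% of all measured genes were above 0 and the median was -0.07. In *Apoe*-high over *Apoe*-zero tumor cells 13 of the 22 were above 0 and the median was 0.05, against 33.5% and -0.17 over all genes. Of 15 genes of lysosomal lipid handling, *Lipa*, *Npc1* and *Npc2* among them, 14 were above 0 between the libraries with a median of 0.29. In *Apoe*-high cells 11 of the 15 were above 0 and 2 were past 2-fold, the cathepsins *Ctsl*, at 324 CPM in *Apoe*-zero and 934 CPM in *Apoe*-high cells, and *Ctsb*, at 1135 and 2521 CPM, beside 4.18% of all genes higher and 3.82% lower. Of 8 genes of sterol and lipoprotein uptake 7 were measured, 4 above 0 and 3 below between the libraries, with a median log2 of 0.07. *Msr1*, the scavenger receptor A, was past 2-fold higher, at 28.6 CPM in the control and 68.9 CPM in the tumor library. *Marco* was past 2-fold lower, at 585 and 207 CPM, beside 4.3% of all genes higher and 5.16% lower. In *Apoe*-high over *Apoe*-zero cells 4 of the 7 were above 0 and 1 was past 2-fold lower, and *Msr1* had a log2 ratio of 0.79 [0.48, 1.08].

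Genes known from lipid-associated macrophages were higher in *Apoe*-high tumor cells. Of 12, 11 were above 0, 6 were at least 2-fold higher and the median log2 ratio was 1.06, where 4.18% of all measured genes were at least 2-fold higher and 3.82% lower. *Trem2*, a lipid-sensing receptor, was at 188 CPM in *Apoe*-zero and 697 CPM in *Apoe*-high cells, *Gpnmb* at 260 and 1277 CPM, *Spp1*, which encodes osteopontin, at 1615 and 5772 CPM, and *Mmp12*, a macrophage elastase, at 36.3 and 278 CPM. *Cd63* and *Fabp5* were past 2-fold as well. Between the libraries 7 of the list were above 0 and 5 below, 1 of each past 2-fold, with a median log2 of 0.09, where 4.3% of all genes were at least 2-fold higher and 5.16% lower. *Spp1* was 4.33-fold higher in the tumor library, at 567 and 2459 CPM, whereas *Mmp12* was lower, at 124 and 59.0 CPM.

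Markers of other cells moved with the *Apoe* class. All 10 AM markers were lower in *Apoe*-high than in *Apoe*-zero tumor cells, 5 of them at least 2-fold, with a median log2 ratio of -0.98, where 3.82% of all genes were at least 2-fold lower and the median was -0.17. The summed level of the list was 14300, 12120, 11125 and 7608 CPM over the 4 classes. *Marco* was at 267 CPM in *Apoe*-zero and 27.8 CPM in *Apoe*-high cells, *Car4* at 176 and 11.5 CPM, *Fabp1* at 178 and 18.2 CPM and *Ear1* at 351 and 69.2 CPM.

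Of the 7 interstitial macrophage markers, *C1qa*, *C1qb*, *C1qc* and *Ms4a7* were at least 2-fold higher in *Apoe*-high cells, with *C1qb* at 2.77 and 189 CPM, *Cx3cr1* had under 10 UMIs and *Folr2* and *Lyve1* were at 0. Beside 4.18% of all genes nothing is read from this count, since at their *Apoe*-zero levels these 4 genes would have stayed under the 10 UMIs asked for. The summed level of that list was 18.1 CPM in *Apoe*-zero and 440 CPM in *Apoe*-high cells, and 5.61% and 29.2% of those cells carried any of it. Of the 7 monocyte and tumor macrophage markers *Tgfb3* was at 0, the summed level was 134 and 242 CPM, and *Itgam*, which encodes CD11b, the antigen absent from the study's AMs by definition, was at 6.55 and 93.2 CPM. The 5 neutrophil markers summed to 90.2 and 179 CPM and were carried by 25.7% and 43.8% of the cells, with *S100a9*, *Retnlg* and *Ly6g* at 0 in *Apoe*-high cells. The fibroblast list and the T and NK cell list, 5 genes each, were at 0 in *Apoe*-high cells. Before thinning, at least 1 UMI of *C1qa*, *C1qb*, *C1qc*, *Itgam*, *Ccr2*, *Cx3cr1* or *Ly6c2* was in 13.1% of the 4941 *Apoe*-zero cells and 67.9% of the 274 *Apoe*-high cells. Unlike the shares above, which are of thinned counts, these are not matched for depth.

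Cells carrying any of those 7 genes before thinning were then left out, a step that removes deeper cells more readily. *Apoc1*, *Apoc2* and *Npc2* were still higher in *Apoe*-high cells, with log2 ratios of 2.02 [1.5, 2.50], 2.84 [1.78, 3.76] and 0.68 [0.53, 0.83]. *Abcg1* had a log2 ratio of -0.55 [-0.71, -0.39] and *Lpl* one of -0.51 [-0.63, -0.40]. Only 88 of the 274 *Apoe*-high cells remained, with 38 *Apoc1* and 11 *Apoc2* UMIs, and at their *Apoe*-zero levels both genes would have stayed under 10 UMIs. Nothing is therefore read from the count past 2-fold, which over all 4449 measured genes was 3.46% higher and 1.75% lower.

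The cells were clustered on genes other than the 10 examined here, with both libraries together, and 21 clusters held at least 50 tumor cells. They are numbered by size and named by their leading genes only. *Apoe* was highest in cluster 18, led by *C1qb*, *C1qa* and *C1qc*, with 8612 CPM [8475, 8750] in its 121 tumor cells. Of these, 55 had a UMI of those 3 genes, and *S100a9*, also among the leading genes, was at 0 in them. The 121 cells held 15108 of the 41455 tumor *Apoe* UMIs, or 36.4%, and 99 of them had a UMI, with a lowest cell at 0, a median of 1172 CPM and a highest cell of 49024 CPM. Cells of the cluster thus differed widely, and 62 of them lay above 1000 CPM. Its 21 control cells held *Apoe* at 633 CPM. The level depends on the clustering: the highest cluster held *Apoe* at 8747 CPM in 118 tumor cells at a coarser resolution of 0.5, at 4110 CPM in 433 cells at a finer resolution of 1.5 and at 2992 CPM in 480 cells without alignment of the libraries.

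Cluster 18 also held *Apoc2* at 78.1 CPM, 21.2% of the tumor *Apoc2* UMIs, *Npc2* at 1589 CPM and *Apoc1* at 79.8 CPM. *Abcg1* was at 550 CPM there, the lowest of the 21, and *Lpl* at 1463 CPM. The AM list summed to 6955 CPM in these cells and to 13208 CPM in the other tumor cells, with no marker at 0. The interstitial list summed to 1348 and 26.7 CPM with *Lyve1* at 0, the monocyte list to 365 and 137 CPM with *Tgfb3* at 0, and all 5 T and NK cell markers were at 0. Their part in the result was not tested, and with this cluster left out *Apoe* was 16.4-fold higher in the tumor than in the control library.

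The other large source was cluster 2, led by *S100a6*, *Syngr1*, *Ecm1* and *Spp1*, with 1180 tumor and 22 control cells. *Apoe* was at 1132 CPM in its tumor cells, which held 32.9% of the tumor *Apoe* UMIs and 130 of the 274 *Apoe*-high cells, against 49 in cluster 18. In this cluster *Apoc1* was at 1.66 CPM and *Abca1* at 38.5 CPM, while *Npc2* was at 1026 CPM. Cluster 7, led by *Il1b* and *S100a4*, likewise had *Apoe* at 337 CPM and *Apoc1* at 3.07 CPM. *Apoc1* was instead highest in cluster 9, led by *H2-Aa* and *Cd74*, at 96.9 CPM, and in cluster 8, led by *Ear1* and *Txnip*, at 91.7 CPM. It was also high in cluster 18, on 140 UMIs. The order of these clusters was not tested, so no separate peak of *Apoc1* is read from it.

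Cluster 1, led by *Acaa1b* and *Fabp1*, had the reverse pattern, with *Apoe* at 67.9 CPM and the highest levels of *Abca1* (137 CPM) and *Abcg1* (1791 CPM) of the 21 tumor clusters. *Lpl* was at 3313 CPM there, and the cluster held 2067 control and 1084 tumor cells. *Lipa* was highest in cluster 13, led by *Slc40a1* and *Hmox1*, at 1127 CPM in tumor and 1630 CPM in control cells. Clusters 5 and 11 were shallow, with medians of 3093 and 3182 UMIs per cell.

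In 13 of the 21 tumor clusters the interval of *Apoe* lay above 166 CPM, the upper bound in tumor barcodes under the gene minimum. Those 13 held 92.8% of the tumor *Apoe* UMIs. The other 8, clusters 1, 3, 4, 6, 8, 10, 14 and 16, had intervals that were not above that bound, with levels down to 62.9 CPM in cluster 16. Their levels cannot be told apart from those barcodes, which can hold free RNA or be shallow AMs.

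Across the 21 tumor clusters *Npc2* and *Apoc2* followed *Apoe* most closely, with Spearman coefficients of 0.857 and 0.775, and 0.835 and 0.740 over the 20 without cluster 18. The coefficients were -0.218 for *Apoc1*, -0.192 for *Abca1*, -0.352 for *Abcg1*, -0.445 for *Lpl* and 0.226 for *Npc1*. Over the 15 control clusters with at least 50 cells they were 0.614 for *Npc2* and 0.507 for *Apoc2*. Clusters of 1 library share its mice, free RNA and depth, so these are descriptions.

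**Figure D4:**
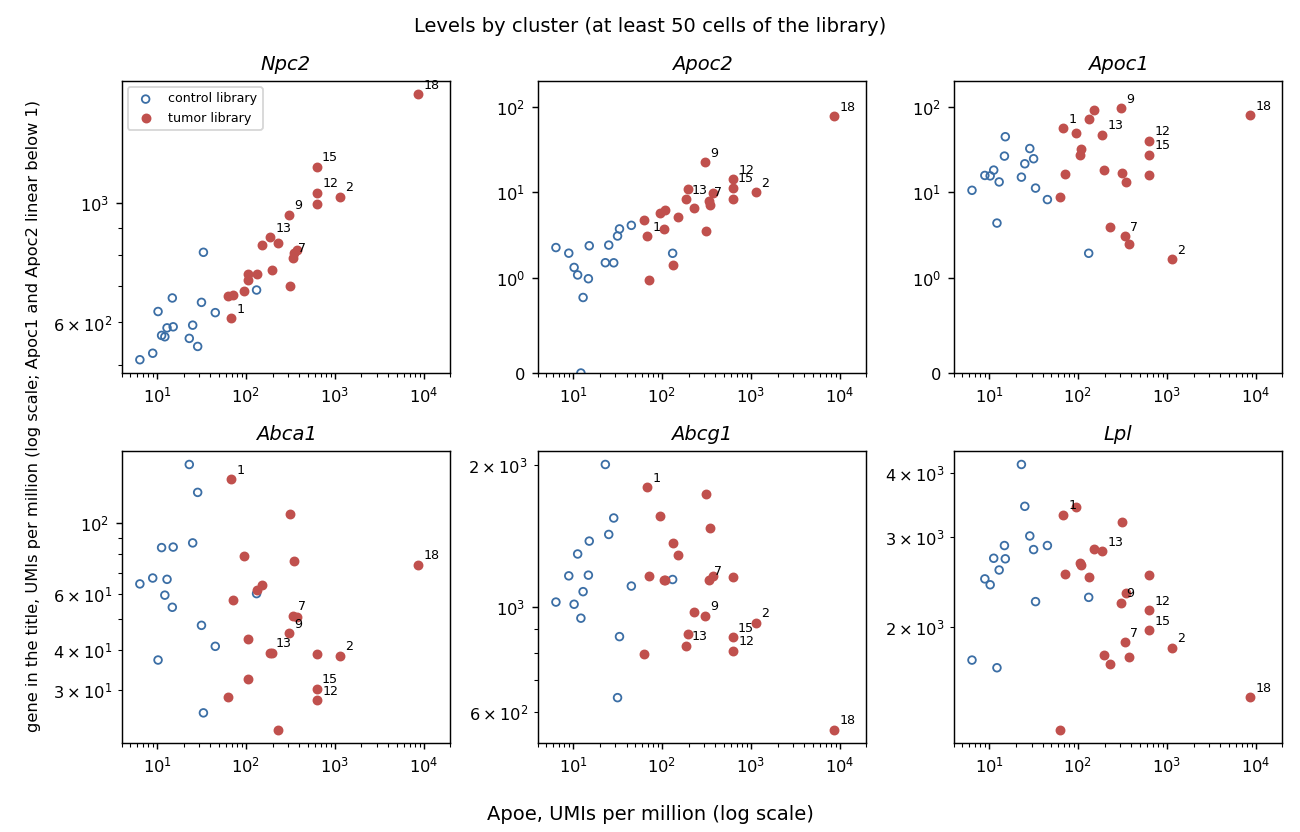
Level of 6 genes (CPM, log scale, linear below 1 for *Apoc1* and *Apoc2*) against that of *Apoe* (CPM, log scale), 1 point per cluster and library with at least 50 cells. Some tumor clusters carry their number. *Npc2* and *Apoc2* are highest in cluster 18, where *Apoe* is at 8612, and *Abcg1* is lowest there.

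Within 15 clusters that had at least 50 cells of each library, *Apoe* was higher in the tumor cells of all 15, from 2.37-fold in cluster 1 to 27.1-fold in cluster 9. Of these 15, 8 are the clusters whose tumor level cannot be told apart from barcodes under the gene minimum, cluster 1 among them. The control level over all cells could not be told apart from such control barcodes either. *Npc2* was higher in the tumor cells of 15 of 15, by 1.13- to 1.67-fold with every interval above a ratio of 1. *Nr1h3* and *Apoc1* were higher in 14 of 15 each, with intervals above 1 in 9 and 10, and *Apoc2* was higher in 12 and lower in 2. *Abca1* was lower in 12 of 15, with intervals below 1 in 5, and higher in cluster 1 with a log2 ratio of 0.14 [0.03, 0.24], whereas *Abcg1* was higher in 7 and lower in 8. The higher level of *Npc2* was therefore also seen among cells of like profile, while *Abca1* and *Abcg1* were not of 1 direction.

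The relation to *Apoe* was also read within single clusters. Clusters 2, 7 and 15 had at least 50 tumor cells both with 3 or more *Apoe* UMIs and with none. *Npc2* had log2 ratios of 0.47 [0.37, 0.57], 0.38 [0.21, 0.54] and 0.35 [0.15, 0.55] in them, and *Apoc2* of 1.51, 2.10 and 1.12, the last with an interval [-1.21, 3.34] that includes 0. *Apoc1* had 2.34, 0.69 and -1.80 on 4, 3 and 2 UMIs, with intervals that all include 0. *Abcg1* had -0.22, -0.21 and 0.12, against -0.38 in all tumor cells. *Abca1* was higher in the cells with *Apoe* in clusters 2 and 7, at 46.2 against 30.0 CPM and at 97.5 against 45.9 CPM, and had an interval including 0 in cluster 15.

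Over single cells, correlations were taken on the log of 1 plus the thinned count among genes seen in at least 5% of cells. Over 6937 tumor cells the genes most like *Apoe* were *Ctss* with a Pearson coefficient of 0.416, *Lyz2* with 0.371, *Gpnmb* with 0.325, *Slamf7* with 0.316 and *Trem2* with 0.305, followed by *Syngr1*, *Spp1*, *S100a6*, *Hpse* and *Fabp5*. *Npc2* ranked 25 of 6680 genes with 0.224, whereas *Lpl*, with -0.198, and *Abcg1*, with -0.158, were 10 and 23 from the lowest end. Over 5590 control cells *Apoc1* ranked 1 of 6696 genes with 0.163 and *Abca1* 3 with 0.0988, with *S100a6* between them. These cells share a library and its free RNA, and in counts this sparse coefficients of this size are weak.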

How the data were processed

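AMs of 2 samples, 1 control and 1 tumor library, were profiled with the 10x Genomics 3′ chemistry. The deposited values are raw UMI counts per gene and barcode made by the authors with Cell Ranger, version 4.0.0 in the submitters' processing notes, which also name bcl2fastq 2.20 and mm10. The study's methods name another version of Cell Ranger. The genes and lists were chosen with earlier results of these data known.

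Barcodes with at least 500 genes and at most 10% mitochondrial UMIs were kept, 6185 and 7666. No doublets were removed, since Scrublet marked 1 cell per library, which was taken as not having worked. An alternative removed the 277 control and 415 tumor cells that scored above a limit set for 6%, which were 4.48% and 5.41%. Cells were thinned to 3800 UMIs, close under the 10th percentile of both libraries, by drawing UMIs without replacement. Genes with at least 10 UMIs in both groups compared entered counts and backgrounds, which a low gene meets in a small class only where it is high.

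Named are the 10 genes, list genes past 2-fold with at least 100 UMIs (at most 4 per list and comparison), the 10 genes most correlated with *Apoe*, the cell type markers and leading genes of clusters. Other genes named, such as *Pltp*, were chosen after their values were seen.

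For clustering the 10 genes were left out, counts were scaled to 10000 per cell, 2000 variable genes and 100 components were used, libraries were aligned by mutual nearest neighbours (20 neighbours), and the Leiden method was run at resolution 1 on a graph of 15 neighbours. Poisson, Clopper-Pearson and conditional binomial intervals are at 95%. Intervals on differences in share are approximate and join the Clopper-Pearson intervals of both libraries. The ratios, intervals and thinning were tested on simulated data. Python 3.11.15, numpy 2.4.6, scipy 1.17.1, pandas 2.3.3, scanpy 1.11.5 and leidenalg 0.10.2 were used.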

Additional observations from a re-analysis of the deposited data

Results flagged for a closer look

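*Abcg1* had ratios on opposite sides of 0 in the libraries. In cells with 3 or more *Apoe* UMIs over cells with none, its log2 ratio was 0.18 [0.03, 0.32] in the control library and -0.38 [-0.44, -0.33] in the tumor library. With 1 library per condition this difference was not tested. The control class held 70 cells and 398 *Abcg1* UMIs. With another random thinning the control ratio was 0.06 [-0.09, 0.21] on 69 cells and the tumor ratio -0.36. In control cells with 10 or more *Apoe* UMIs the ratio was 0.03 on 8 cells, and -1.34 [-2.40, -0.46] on the 5 such cells of another random thinning.

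*Apoe* was also present in barcodes that the quality limits removed. In the 1509 removed tumor barcodes it stood at 162 CPM [145, 181], against 26.7 CPM [21.2, 33.2] in the 2300 removed control barcodes. Of the former, 10.2% had an *Apoe* UMI, and of the latter 2.78%.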

How the results depend on the processing

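The log2 ratio of *Apoe* between the libraries kept its direction under the 8 alternatives. It was 3.75 as a mean of the CPM of each cell, 4.04 without the cluster where *Apoe* is highest and 3.39 without cells carrying any of the 7 monocyte and interstitial genes, and otherwise 4.53 to 4.63. The difference in the share of cells was 18.6 percentage points after thinning to 2000 UMIs, 29.7 without thinning, 16.0 at 2 or more UMIs, 11.9 at 3 or more and 3.81 at 10 or more. The level of *Apoe* in its highest cluster was 8747 CPM at resolution 0.5, 4110 CPM at resolution 1.5 and 2992 CPM without alignment of the libraries. The cause was not tested.

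The count of genes at least 2-fold higher was 2 between the libraries and 2 in *Apoe*-high tumor cells under every alternative run. With *Apoe*-high set at 20 UMIs the latter were *Apoc2* and *Npc2* (1.09), *Apoc1* was at 0.89, and *Abcg1* was past 2-fold lower at -1.08. Of the 9 other genes, 8 kept their direction between the libraries and 8 in *Apoe*-high tumor cells, with *Lipa* at -0.04 to 0.05 between libraries and *Abca1* at -0.41 to 0.36 in *Apoe*-high cells. In the *Apoe*-high control class (8 cells) *Abcg1* (-2.33 to 0.27), *Lpl*, *Nr1h3*, *Lipa* and *Npc2* changed sign under some alternative, and *Npc1* went from -1.17 to 0.0054 at 3 or more UMIs with another random thinning. Leaving out a cluster, the 7 genes or endothelial markers, the limit of 3 UMIs, and that of 10 for the share of cells were chosen after seeing the data. No paired analysis was possible because there was 1 library per condition, and no replicate could be left out. Values of *Apoc2*, and those of the control class with 10 or more *Apoe* UMIs, rest on few counts.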
